A study of Homo sapiens with 6 samples.

Results

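Genes of integrins, laminins and the focal adhesion machinery were examined in HCT116 cells, a human colorectal cancer line, transfected with miR-8485 mimics or with a control (CTR). The members were the 51 genes of a list of adhesion genes, found by symbol among the 58735 genes of the deposited expression table, and every member was listed. They comprise 11 integrin chains, 6 laminin chains, 17 adhesion linkers, 8 adhesion signalling genes and 9 contractility genes. RNA was sequenced from 6 libraries, 3 of CTR and 3 of miR-8485, which the labels give as independent biological replicates of wild-type HCT116 cells. The mimic was used at 50 nM and the cells were collected after 48 h, whereas the dose and sequence of the control are not given in the sources used here. All groups share 1 cell line and transfection with a reagent, and the level of the mimic itself was not analysed here.

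Integrins are receptors of 1 alpha and 1 beta chain that bind the extracellular matrix outside the cell. Laminins are trimers of an alpha, a beta and a gamma chain in the basement membrane, and epithelial cells hold on to them through integrins with the alpha-3 and alpha-6 chains. On the inner side, talin, kindlins, vinculin and filamins tie the integrin tails to actin, kinases and adaptors such as FAK, Src and CRK pass on the signal, and RhoA with its kinases drives the myosin that pulls on the adhesion. In colorectal epithelium these genes are known for anchoring cells and for cell spreading and migration.

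The mimic is shown because its seed, bases 2 to 8 in capitals, sets the 7-base site searched for in the members. The sense strand is given 5′ to 3′ as in the study's methods.
miR-8485 mimic: cACACACAcacacguau
The matching site in a transcript is TGTGTGT, an alternation of T and G that often lies in longer repeats. Windows of 30 bases around such runs in the 3′ UTR of the canonical GENCODE transcript follow, in DNA letters of the transcribed strand and with hg38 coordinates, the run of alternating T and G in capitals. They were chosen to show members that fell (FLNC, CRKL and VCL), a member that rose (TNS3), a member that did neither (PARVA) and the longest run among the members (ITGA1).
FLNC, chr7:128858870-128858899, plus strand: ttgtgggtgtcTGTGTGTGaggtcaccctc
CRKL, chr22:20950709-20950738, plus strand: tggcctagactTGTGTGTtctaaacaggtt
CRKL, chr22:20953402-20953431, plus strand: acggtcttcacTGTGTGTtttaaaacaaca
VCL, chr10:74119666-74119695, plus strand: ccacccatcgcTGTGTGTtagttcccaaca
TNS3, chr7:47276322-47276351, minus strand: agtgggtgtTGTGTGTGTGTGcgtgtgtgc
PARVA, chr11:12528739-12528768, plus strand: caattaataGTGTGTGTGTGgcaggagtca
ITGA1, chr5:52954614-52954643, plus strand: gaggttTGTGTGTGTGTGTGTGTGcatgtg
The run of FLNC had 8 bases and that of TNS3 had 12, while ITGA1 carried 18 bases of uninterrupted repeat.

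Levels were measured as FPKM, fragments scaled to the length of the gene and to the fragments of the library, so that levels of different genes can be set side by side. The libraries held 17473874 to 18480047 fragments on listed genes. A fold change is given here as the difference between group means of log2(FPKM + 0.1), miR-8485 minus CTR, with its standard error. It understates the change of genes with low FPKM. Tests were made with limma, two-sided, over the 12349 genes with a mean of at least 1 FPKM, and a gene was called at a Benjamini-Hochberg adjusted p under 0.05. The epithelial markers EPCAM (mean 135 FPKM in CTR and 130.3 FPKM in miR-8485) and CDH1 (19.7 and 19.1 FPKM) were present. Over all 6 libraries, 7 of 8 markers of colorectal epithelium reached a mean of 1 FPKM, with VIL1 near 0. The summed level of all 8 was 2614 to 2839 FPKM in CTR and 1753 to 1840 FPKM in miR-8485, a difference carried by KRT8, KRT18 and KRT19, whereas CDX2 (16.0 and 28.2 FPKM) and KRT20 (0.73 and 2.02 FPKM) were higher in miR-8485. KRT20 reached a mean of 1 FPKM only through miR-8485. The part of these markers in the adhesion results was not tested. Of the fibroblast markers 1 of 5 reached 1 FPKM (COL1A1) and DCN was at 0, and none of the 3 endothelial or 3 leukocyte markers did. In bulk RNA, fewer cells of a type and less RNA per cell cannot be told apart.

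Most of the members were lower in cells with miR-8485. The list was chosen with earlier results of these data known, so its shares do not stand for adhesion genes at large. Of the 46 members that passed the filter, 37 (80.4%) fell and 7 (15.2%) rose at an adjusted p under 0.05 by limma, against 30.5% lower and 29.1% higher among all genes tested. PARVA and DIAPH1 passed neither way. The median change over all 51 members was -0.45 on the log2 scale, against -0.0041 over all genes tested. The libraries of the 2 groups did not overlap for 44 of the 46 (95.7%), against 66.5% of all genes tested. A fall of at least 1 on the log2 scale was measured for 7 members (ITGA2, ITGA3, ITGA6, ITGB4, LAMA3, TNS4 and FLNC), a size reached by 4.49% of all genes tested. The 5 members below the filter were ITGA1, ITGB6, ITGB8, ILK and CDC42.

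Scaling bears on the few rises. FPKM summed to between 322999 and 339641 in CTR and to between 351052 and 369643 in miR-8485, and rescaling to TPM, which makes these sums equal, moved the median change of all genes tested from -0.0041 to -0.12 and the share of calls that were higher from 48.8% to 35.6%. Under TPM LAMA5, PARVB and TNS3 remained called higher, whereas LAMB1, LAMB2, CAV1 and RAC1 were above 0 but not called.

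**Figure D1:**
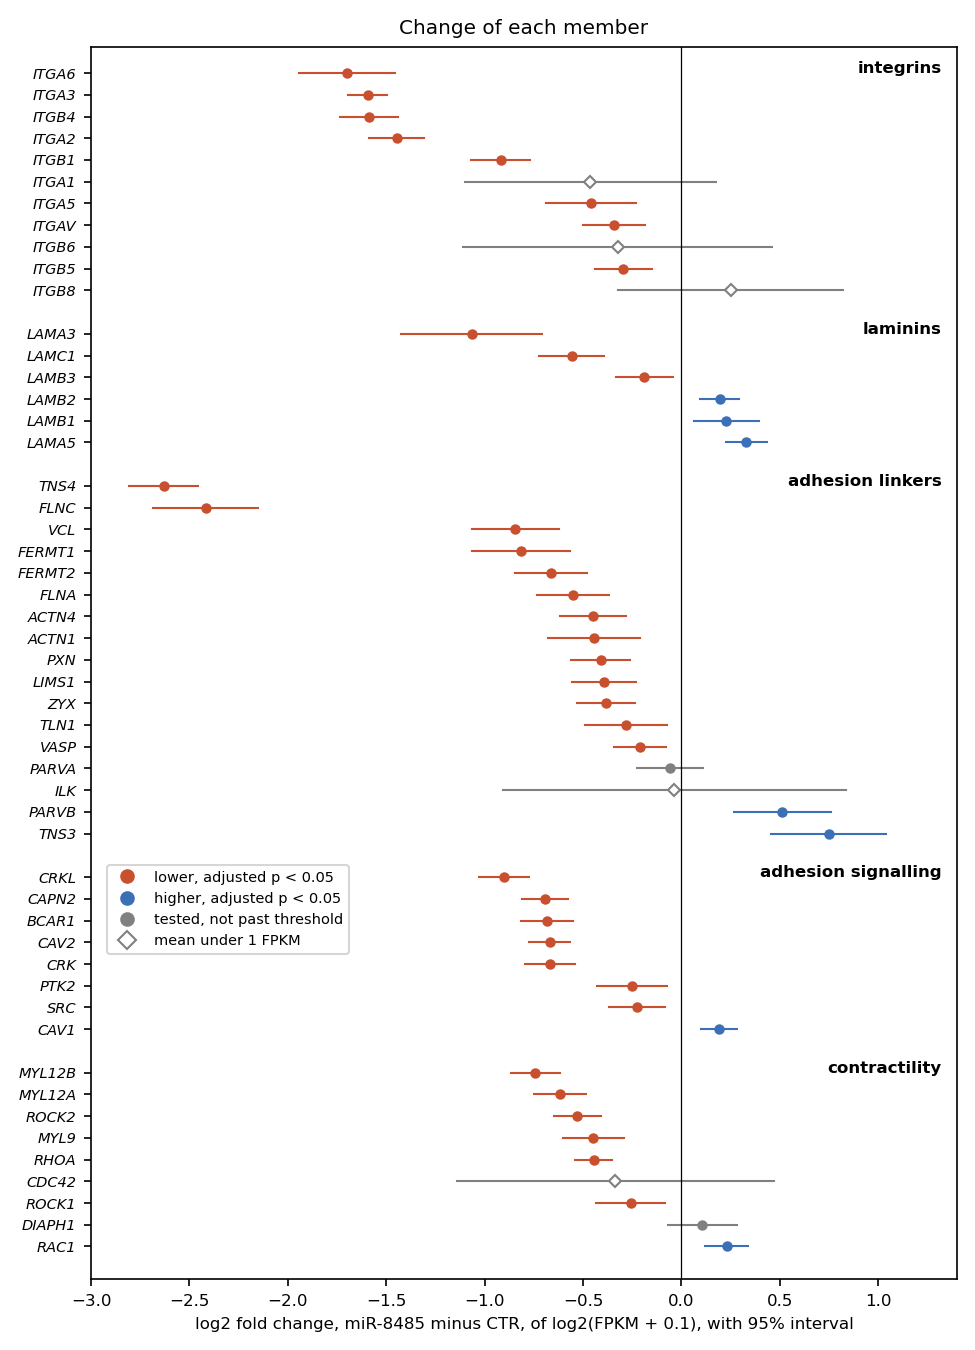
Log2 fold change of each of the 51 members, miR-8485 minus CTR, with the 95% interval (horizontal axis), sorted within the 5 role groups. Filled circles are genes tested and open diamonds are the 5 members with a mean under 1 FPKM. The integrins tested all lie left of 0, TNS4 lies farthest left at -2.63, and the laminins lie on both sides.

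Of the 11 integrin chains among the members, all 8 that passed the filter fell, against 30.5% of all genes tested. Their falls were 0.30 to 1.70 on the log2 scale, with a median change of -1.18, and the median of all 11 was -0.46. ITGA6, the alpha chain of the laminin receptors alpha-6 beta-1 and alpha-6 beta-4, stood at 22.5, 21.9 and 23.6 FPKM in CTR and at 5.97, 6.80 and 8.11 FPKM in miR-8485. Its lowest CTR library was thus above its highest miR-8485 library, and the change was -1.70 ± 0.10 (SE, adjusted p = 1.4e-05, limma). ITGB4, the beta chain of the hemidesmosome receptor and the most abundant integrin of the CTR cells, was at 79.9, 88.1 and 87.9 FPKM and then at 28.1, 26.6 and 30.3 FPKM. This was a change of -1.59 ± 0.06 (adjusted p = 2.9e-06, limma), leaving 33.2% of the CTR level. The ratio of ITGB4 to ITGA6 was 3.55 to 4.01 in CTR and 3.74 to 4.71 in miR-8485, so that these partners kept overlapping ratios while both fell.

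ITGA3, whose product pairs with beta-1 to bind laminins, was at 53.2, 53.6 and 54.4 FPKM in CTR and at 18.2, 17.1 and 17.9 FPKM in miR-8485, with little spread in either group (-1.59 ± 0.04, adjusted p = 1.1e-06, limma). ITGA2, the alpha chain of a collagen receptor, was at 24.6, 26.1 and 27.0 FPKM and then at 9.24, 9.04 and 10.04 FPKM. Its change was -1.45 ± 0.06 (adjusted p = 3.3e-06, limma), and the groups did not overlap. ITGB1, the beta chain shared by the alpha-2, alpha-3, alpha-5 and alpha-6 chains, was at 70.5, 64.3 and 67.8 FPKM in CTR and at 32.9, 36.0 and 38.1 FPKM in miR-8485. It fell by 0.92 on the log2 scale (SE 0.06, adjusted p = 2.5e-05, limma), less in size than its partners ITGA2, ITGA3 and ITGA6, though the difference between genes was not tested.

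The fold changes of the fibronectin and vitronectin receptor chains were smaller. ITGA5, the fibronectin receptor alpha chain, changed by -0.46 ± 0.10 (adjusted p = 0.00481, limma), from a mean of 15.5 ± 2.02 FPKM (SD, n = 3) to 11.2 ± 0.74 FPKM (SD, n = 3). ITGAV fell by 0.34 (by 0.20 with the GC trend removed) and its partner ITGB5 fell by 0.30 on the log2 scale. The make-up of the alpha chain transcripts differed accordingly, since ITGA5 made up 11.1% to 13.5% of the summed alpha chain FPKM in CTR and 20.9% to 21.9% in miR-8485, whereas ITGA3 made up 41.6% to 43.1% and then 32.6% to 35.5%. Summed over the member alpha chains, the level was 123 to 131 FPKM in CTR and 50.7 to 54.9 FPKM in miR-8485, and over the beta chains 171 to 178 FPKM and 79.7 to 86.5 FPKM.

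The remaining chains lay below the filter of 1 FPKM. ITGA1, the alpha chain of another collagen receptor, rested on 36, 46 and 55 fragments in CTR and 26, 24 and 22 in miR-8485, libraries that did not overlap, and had a change of -0.46 with a 95% interval of -1.10 to 0.18 in the fit of all 31768 genes above 0. It was called lower only by voom on the recovered fragments (-0.93, adjusted p = 0.0296). The gene PELO covers 9.4% of the ITGA1 span on the same strand. PELO was at 12.4 to 13.2 FPKM in CTR and 8.47 to 9.08 FPKM in miR-8485, and its part in the ITGA1 values was not tested. ITGB6 had 1 to 13 fragments per library, and ITGB8 was at 0.44 to 0.54 FPKM in CTR and 0.51 to 0.72 FPKM in miR-8485, with overlap between the groups. Both chains pair with ITGAV.

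**Figure D2:**
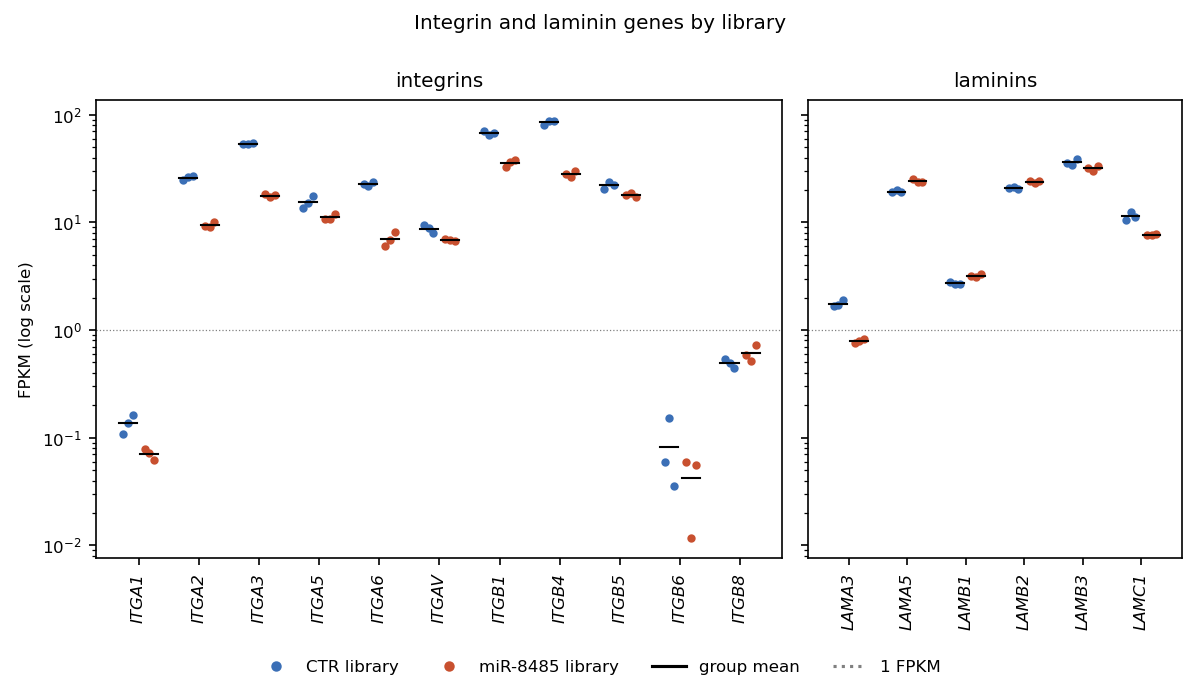
FPKM (log scale) of the 11 integrin and 6 laminin genes in each library, CTR in blue and miR-8485 in orange, 3 points a group with the mean as a black bar and 1 FPKM as a dotted line. ITGA2, ITGA3, ITGA6 and ITGB4 show wide gaps between the groups, whereas LAMA5, LAMB1 and LAMB2 lie slightly higher in miR-8485.

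The laminin chains went in both directions. LAMA3, LAMB3 and LAMC1 fell and LAMA5, LAMB1 and LAMB2 rose, with a median of 0.0025 on the log2 scale. This was 50% each way, against 30.5% lower and 29.1% higher among all genes tested. LAMB3, the beta chain of laminin-332 and the most abundant laminin chain, was at 35.9, 34.2 and 38.6 FPKM in CTR and at 32.3, 29.9 and 33.1 FPKM in miR-8485. The groups came close to touching and the change was only -0.19 ± 0.06 (adjusted p = 0.0304, limma). LAMA3, the alpha chain of laminin-332, was at 1.67, 1.71 and 1.91 FPKM and then at 0.75, 0.78 and 0.83 FPKM, with no overlap (-1.07 ± 0.15, adjusted p = 0.00075, limma). LAMA3 passed the filter only through its CTR level.

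LAMC1, the gamma chain shared by laminin-511 and laminin-521, was at 10.5, 12.5 and 11.2 FPKM in CTR and at 7.68, 7.62 and 7.79 FPKM in miR-8485. It fell by 0.56 on the log2 scale (SE 0.07, adjusted p = 0.00038, limma). LAMA5, the alpha chain of both trimers, was at 19.1, 19.9 and 19.1 FPKM and then at 25.2, 23.9 and 23.9 FPKM, a rise of 0.33 ± 0.04 (adjusted p = 0.00056, limma) with no overlap. LAMB1 was at 2.77, 2.70 and 2.69 FPKM in CTR and at 3.19, 3.10 and 3.32 FPKM in miR-8485, and LAMB2 changed by 0.19 from a mean of 20.8 to 23.8 FPKM. The chains of 1 trimer therefore moved apart, and the ratio of LAMA5 to LAMC1 was 1.59 to 1.82 in CTR and 3.07 to 3.28 in miR-8485. Beyond the TPM scaling, the call of LAMB1 was lost without CTR replicate 2 or 3 or miR-8485 replicate 1 or 3 (adjusted p of 0.0621 to 0.0883), and that of LAMB3 without CTR replicate 3 or miR-8485 replicate 1 or 2 (0.057 to 0.101), with no filter (0.0731) or without a variance trend (0.0583). The rise of LAMA5 was 0.22 under TPM and 0.13 (adjusted p = 0.0317, limma) with the GC trend removed, LAMB2 was at 0.11 without the GC trend, LAMB3 at -0.30 under TPM, and LAMA3 at -0.63 with a pseudocount of 1. The gene DLD, at 24.7 to 27.9 FPKM, lies on the opposite strand over 10% of the LAMB1 span, and its part in the LAMB1 values was not tested.

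Linkers between integrins and actin fell in 13 of 16 members tested (81.2%) and rose in 2 (12.5%), with a median of -0.41 over all 17. Among all genes tested, 30.5% were lower and 29.1% higher. ACTN4, an actin crosslinker and the most abundant of them, was at 107, 121 and 127 FPKM in CTR and at 81.7, 87.9 and 89.7 FPKM in miR-8485 (-0.45 ± 0.07, adjusted p = 0.00128, limma). TNS4, a tensin that binds integrin beta tails but lacks the actin-binding part of its relatives, was at 23.5, 27.5 and 27.9 FPKM in CTR and at 4.12, 4.03 and 4.30 FPKM in miR-8485. It had the lowest fold change of all members, -2.63 ± 0.07 (adjusted p = 1.3e-06, limma), with 15.8% of the CTR level left. Its relative TNS3 rose from a mean of 1.17 ± 0.04 to 2.04 ± 0.17 FPKM (SD, n = 3 each), a change of 0.75 ± 0.12 (adjusted p = 0.00153, limma). TNS4 was still the more abundant of these tensins in every library, with TNS3 to TNS4 ratios of 0.04 to 0.05 in CTR and 0.46 to 0.55 in miR-8485.

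FLNC, a filamin that crosslinks actin and is best known from muscle, was at 8.50, 11.06 and 11.03 FPKM in CTR and at 1.94, 1.83 and 1.68 FPKM in miR-8485. The change was -2.42 ± 0.11 (adjusted p = 5.7e-06, limma), whereas FLNA, the main filamin of most cells, fell by 0.55 from a mean of 74.4 to 50.6 FPKM. The FLNA to FLNC ratio was accordingly 6.90 to 7.69 in CTR and 25.6 to 30.3 in miR-8485. VCL, which encodes vinculin, the protein that reinforces the talin to actin link, was at 17.9, 20.7 and 22.6 FPKM and then at 10.3, 12.0 and 11.5 FPKM (-0.84 ± 0.09, adjusted p = 0.00022, limma). FERMT1, the epithelial kindlin that helps talin to activate integrins, was at 10.95, 13.3 and 14.4 FPKM in CTR and at 6.65, 7.79 and 7.28 FPKM in miR-8485. This was a fall of 0.82 on the log2 scale (SE 0.11, adjusted p = 0.00047, limma), and FERMT2, the other kindlin among the members, fell by 0.66.

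The other 6 linkers that fell were ACTN1 (-0.45), PXN (-0.41), LIMS1 (-0.39), ZYX (-0.38), TLN1 (-0.28) and VASP (-0.21) on the log2 scale. Of the scaffold formed by ILK, LIMS1 and a parvin, LIMS1 fell, PARVB rose by 0.51 ± 0.11 (adjusted p = 0.00436, limma) and PARVA was at -0.06 with a 95% interval of -0.23 to 0.11. ILK, a pseudokinase that binds integrin beta tails, had only 13 to 34 fragments in a library. The gene TAF10 lies on the opposite strand over 63.9% of its span, so its level is uncertain, since the strand setting of the counting is not given in the sources used here. The calls of TLN1 and VASP were the least firm, being lost without CTR replicate 2 or 3 or miR-8485 replicate 1 or 2 for TLN1 (adjusted p of 0.0627 to 0.0866) and without CTR replicate 3 for VASP (0.0507). That of TLN1 was also lost with the length trend removed (-0.16, adjusted p = 0.101), after quantile normalization (0.0547) and with no filter (0.0767), while a pseudocount of 1 gave 0.48 for TNS3 and TPM gave -0.32 for VASP.

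Of the 8 adhesion signalling genes, 7 (87.5%) fell and only CAV1 (12.5%) rose, with a median of -0.67. Among all genes tested, 30.5% were lower and 29.1% higher. CAV1, the main coat protein of caveolae and the most abundant of the group, was at 87.7, 90.6 and 88.5 FPKM in CTR and at 99.7, 105 and 100.4 FPKM in miR-8485. The rise of 0.19 ± 0.04 (adjusted p = 0.00431, limma) was not called under TPM. CAV2, which needs caveolin-1 to reach the membrane, was at 24.3, 23.8 and 23.0 FPKM and then at 14.6, 15.1 and 15.0 FPKM (-0.67 ± 0.04, adjusted p = 1.9e-05, limma). The caveolins thus moved in opposite directions on the FPKM scale, and CAV1 was 3.62 to 3.85 times as abundant as CAV2 in CTR and 6.72 to 6.95 times in miR-8485.

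CRKL, an adaptor downstream of BCAR1 and paxillin, was at 26.3, 24.5 and 26.5 FPKM in CTR and at 14.3, 13.1 and 13.8 FPKM in miR-8485. It fell the farthest of the signalling group, by 0.90 on the log2 scale (SE 0.05, adjusted p = 1.4e-05, limma), and its relative CRK fell by 0.67. BCAR1, the scaffold that CRK proteins bind, was at 12.6, 11.9 and 11.9 FPKM and then at 7.95, 7.25 and 7.33 FPKM (-0.69 ± 0.06, adjusted p = 5e-05, limma). CAPN2, a protease that cuts talin and helps adhesions to come apart, was at 31.8, 33.8 and 32.3 FPKM in CTR and at 19.2, 20.4 and 20.8 FPKM in miR-8485 (-0.69 ± 0.05, adjusted p = 2.7e-05, limma). The central kinases had smaller fold changes than these adaptors, since PTK2, which encodes FAK, fell by 0.25 and SRC fell by 0.23. The call of PTK2 was lost without CTR replicate 2 or 3 or miR-8485 replicate 1 or 2 (adjusted p of 0.0534 to 0.073) and with the trend against gene length removed (-0.11, 0.184), after quantile normalization (0.0588) or with no filter (0.0601). Under TPM SRC was at -0.34, and without the GC trend CAV1 was at 0.29.

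Of the 8 contractility genes tested, 6 (75%) fell, RAC1 (12.5%) rose and DIAPH1 did neither, with a median of -0.45 over all 9. Among all genes tested, 30.5% were lower and 29.1% higher. RHOA, the small GTPase that turns on contraction and the member with the highest mean level in both groups, was at 257, 264 and 275 FPKM in CTR and at 195, 196 and 193 FPKM in miR-8485. Its change was -0.45 ± 0.04 (adjusted p = 7.9e-05, limma), while RAC1, the GTPase of protrusions, changed by 0.23 ± 0.05 (adjusted p = 0.00404, limma) and was not called under TPM. The RHOA to RAC1 ratio, which a factor applied to a whole library cannot alter, was 3.96 to 4.57 in CTR and 2.54 to 2.68 in miR-8485. ROCK2, a kinase that RHOA activates, was at 12.9, 13.5 and 13.7 FPKM and then at 9.45, 8.87 and 9.35 FPKM, a change of -0.53 ± 0.05 (adjusted p = 0.0001, limma). Its relative ROCK1 fell by 0.26, a call lost without CTR replicate 2 (adjusted p = 0.0691) or miR-8485 replicate 1 (0.0642), and also with the trend against gene length (-0.13, 0.183) or GC content (-0.15, 0.115) removed.

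All 3 myosin regulatory light chains among the members fell. MYL12B was at 270.3, 241 and 251 FPKM in CTR and at 157, 150.1 and 148 FPKM in miR-8485 (-0.74 ± 0.05, adjusted p = 2.7e-05, limma). MYL12A was at 77.9, 67.8 and 74.1 FPKM and then at 47.5, 48.5 and 46.9 FPKM (-0.62 ± 0.06, adjusted p = 8e-05, limma). These genes are nearly identical neighbours on chromosome 18, so the split of fragments between them is uncertain. MYL9 was at 24.1, 22.1 and 22.2 FPKM in CTR and at 16.1, 18.1 and 15.9 FPKM in miR-8485 (-0.45 ± 0.07, adjusted p = 0.00084, limma). DIAPH1, a formin that RHOA activates, changed by 0.11 with a 95% interval of -0.07 to 0.28. CDC42, a GTPase of cell polarity, had 8 to 20 fragments in a library, and another listed gene covers 100% of its span on the same strand, so its level is uncertain. Of the members with large changes, ITGB4 shares 17.1% of its span with GALK1 on the opposite strand, a gene at 15.7 to 19.4 FPKM, while the genes opposite ITGA6 were at 1.04 FPKM or less in every library.

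**Figure D3:**
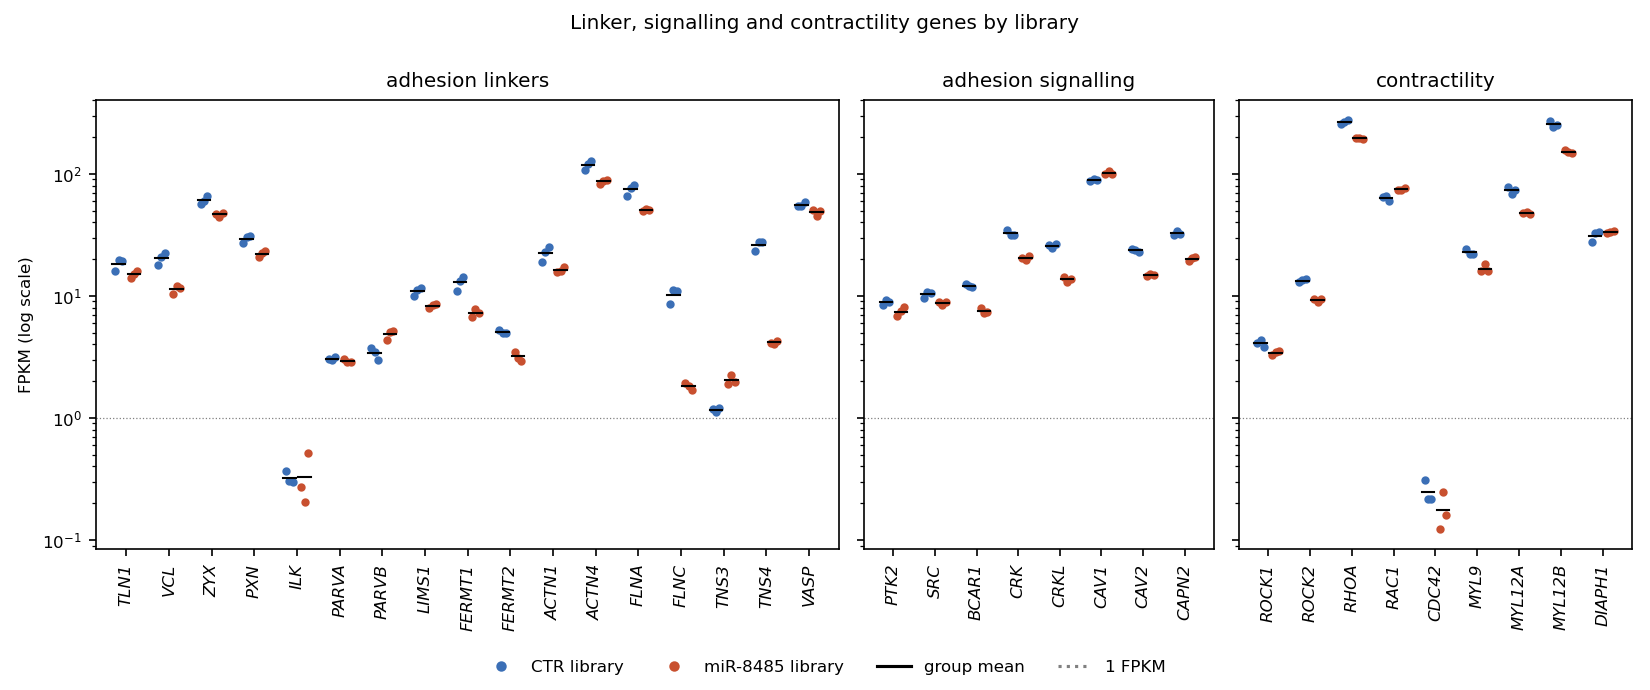
FPKM (log scale) of the 17 linkers, 8 signalling genes and 9 contractility genes in each library, CTR in blue and miR-8485 in orange, 3 points a group with the mean as a black bar and 1 FPKM as a dotted line. TNS4 and FLNC drop the farthest, CAV1, RAC1, PARVB and TNS3 lie higher in miR-8485, and ILK and CDC42 lie under 1 FPKM.

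**Figure D4:**
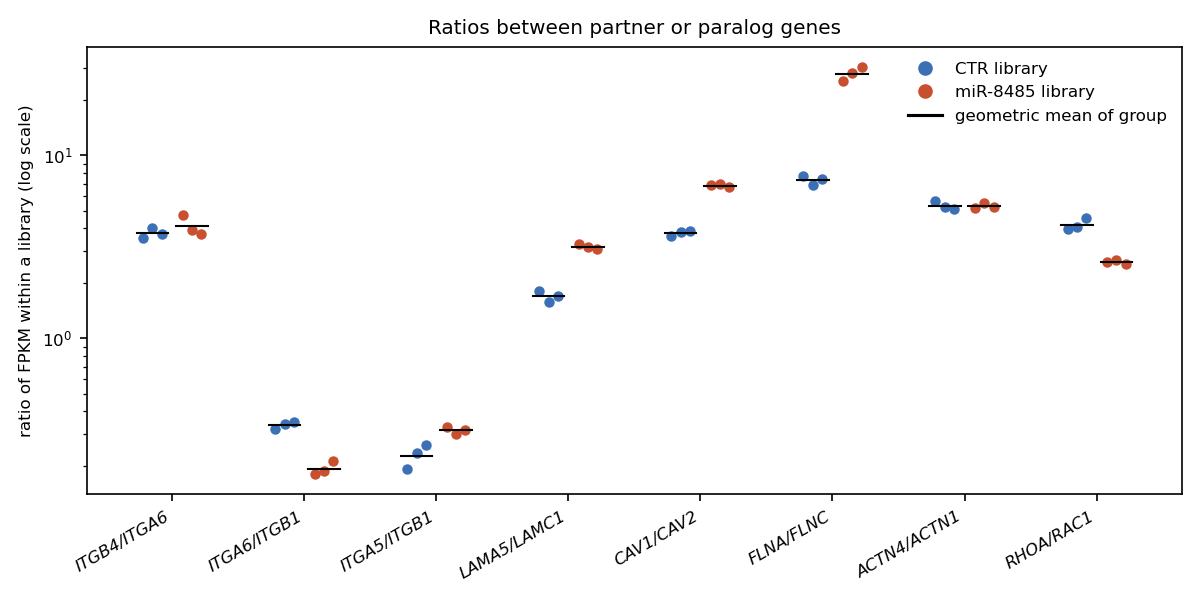
Ratio of FPKM between genes of 1 complex or family within each library (log scale), 3 points a group with the geometric mean as a black bar. The ratios of ITGB4 to ITGA6 and of ACTN4 to ACTN1 overlap between the groups, and the other 6 ratios do not.

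Seed sites were found in members that fell, in members that rose and in members that did neither. With the longest annotated 3′ UTR, 20 of the 51 members (39.2%) held at least 1 TGTGTGT, as did 16 of the 46 tested (34.8%) against 30.1% of the 10696 genes tested that have a 3′ UTR. A site was present in 12 of the 37 members that fell (32.4%) and in 3 of the 7 that rose (42.9%). The median change of members tested was -0.45 with a site and -0.45 without, whereas over all those genes it was -0.15 with a site and 0.02 without. Of the 7 members that fell by at least 1 on the log2 scale, LAMA3 and FLNC held a site, and with the canonical transcript only FLNC did. ITGA2, ITGA3, ITGA6, ITGB4 and TNS4 had none in either 3′ UTR. PARVA and ITGA1 held 6 sites each, SRC and CDC42 held 5 each, and TNS3 held 4. ITGA1 (-0.46) and CDC42 (-0.34) were below the filter. These counts describe letters in annotated 3′ UTRs and no test was run on them.

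Promoters were searched for a pair of motifs tied to adhesion genes, the CArG box bound by serum response factor and the AP-1 motif TGANTCA bound by Fos and Jun proteins. Both motifs read alike on the 2 strands, and the window was the 250 bases before each start in RefSeq on GRCh38.p14, available for 42 of the 51 members. ITGA3, ITGB4, PARVA, FERMT1, TNS4, PTK2, SRC, RAC1 and MYL9 were not matched. A CArG box lay in 5 of 73 member promoters (6.85%) and in 1.16% of all 35116 promoters, the 5 being those of ACTN1, FLNA, CAPN2, ROCK2 and ITGB6. Of these genes ACTN1, FLNA, CAPN2 and ROCK2 fell and ITGB6 was below the filter. AP-1 motifs lay in 7 member promoters (9.59%), of LAMA3, LAMB3, LIMS1, ACTN4, BCAR1 and CAPN2, all of which fell, and in 6.57% of all promoters. Among all members tested, whatever their promoter, 80.4% fell, and a link between either motif and the falls was not tested. The windows of FLNA, CAPN2 and LAMA3 are shown 5′ to 3′ with the motifs in capitals, a CArG box in FLNA, AP-1 motifs in LAMA3 and both in CAPN2.
FLNA, chrX:154374635-154374884, minus strand: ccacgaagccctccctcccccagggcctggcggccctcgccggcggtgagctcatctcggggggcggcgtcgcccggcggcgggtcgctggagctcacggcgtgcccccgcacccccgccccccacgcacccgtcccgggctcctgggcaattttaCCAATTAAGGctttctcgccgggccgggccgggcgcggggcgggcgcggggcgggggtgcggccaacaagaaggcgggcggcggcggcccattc
CAPN2, chr1:223701347-223701596, plus strand: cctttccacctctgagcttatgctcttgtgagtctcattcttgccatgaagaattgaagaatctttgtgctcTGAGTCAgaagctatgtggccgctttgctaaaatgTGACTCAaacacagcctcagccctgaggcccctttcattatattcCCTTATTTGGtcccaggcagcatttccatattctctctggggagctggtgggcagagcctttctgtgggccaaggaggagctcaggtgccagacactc
LAMA3, chr18:23872770-23873019, plus strand: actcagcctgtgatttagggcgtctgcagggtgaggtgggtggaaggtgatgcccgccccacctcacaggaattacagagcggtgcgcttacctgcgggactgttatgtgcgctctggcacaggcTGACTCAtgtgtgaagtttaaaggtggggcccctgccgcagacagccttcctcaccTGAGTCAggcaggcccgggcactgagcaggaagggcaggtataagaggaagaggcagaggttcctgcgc
The window of LAMA3 lies before a start inside the span of the gene, and CAPN2 holds its CArG box 98 to 89 bases before the start. A match is a description of the letters and not a bound site.

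Other genes of the same pathway also fell more often than they rose. Of 104 further genes for matrix ligands, receptors, linkers, signalling and contractility, 70 were tested. Of these 32 (45.7%) fell, 15 (21.4%) rose and 23 did neither, against 30.5% lower and 29.1% higher among all genes tested. The median change was -0.08 over all 104 and -0.10 over the 70 tested. The libraries of the 2 groups did not overlap for 51 of the 70 (72.9%), against 66.5% of all genes tested. Among the 70 tested, the largest falls with no overlap were those of ARHGAP35, a RhoA inactivator (-1.68), PDLIM7 (-1.35), TGFB1I1, a paxillin relative (-1.28), DOCK1, a Rac activator that works with CRK proteins (-1.13), and the formin DIAPH3 (-1.004). ARHGAP35 went from a mean of 6.92 to 2.09 FPKM and PDLIM7 from 31.6 to 12.4 FPKM. The largest rises with no overlap among them were those of LPXN, another paxillin relative (0.98), TRIP6, a relative of zyxin (0.77), the matrix protein THBS1 (0.74), the hemidesmosome collagen COL17A1 (0.63) and PDLIM5 (0.61). TRIP6 rose from a mean of 38.2 to 65.3 FPKM, whereas its relative ZYX among the members fell. LPXN had 36, 30 and 33 fragments in CTR, with a mean of 0.74 FPKM there and 1.60 FPKM in miR-8485. TGFB1I1 had means of 1.48 and 0.54 FPKM. Both genes passed the filter, a mean over all 6 libraries, only through the group where they were high. By role, 5 of 11 matrix ligands tested rose and 3 fell, while none of the 18 further signalling genes tested rose and 9 fell. Of the further receptors tested, 5 of 8 fell and 1 rose, and of the linkers 6 of 13 fell and 3 rose. The further contractility genes were more mixed than the members, since 9 of 20 tested fell and 6 (30%) rose.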

How the data were processed

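Total RNA of 6 HCT116 cultures was sequenced by the authors on a NovaSeq instrument. After trimming by fastp, the authors aligned reads to hg38 (HISAT2 2.0.5), assigned fragments to genes (featureCounts 1.5.0-p3), tested counts by DESeq2 and deposited FPKM per library, the values used here. Whole fragments were recovered from FPKM steps (100% of values above 0 within 0.05 of a whole multiple). Depth was 17473874 to 18480047 fragments on listed genes, and replicate spread includes counting error.

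Genes with a mean of at least 1 FPKM were fitted on log2(FPKM + 0.1) by limma 3.58.1 (R 4.3.3, trended eBayes). The fit was also run on simulated data in which few genes changed, which does not check the scaling or the error rate in these data. Members below the filter came from the fit of all 31768 genes above 0. Python 3.11.15 with numpy 2.4.6, pandas 2.3.3 and matplotlib 3.10.9 was used otherwise. 3′ UTRs came from GENCODE release 44. The members, lists, motifs and tests were chosen with earlier results of these data known. Values in every library are given, per role group, for the highest CTR level and up to 4 largest called changes without overlap, and of other pathway genes above the filter the 5 largest called falls and rises without overlap are named. Genes outside this rule (among them TNS3 and ITGB1) were added for their complex or family. Alternatives were other pseudocounts, filters, scalings, length and GC trends, variance models, a replicate block, voom and each library left out, and scaling to fragments on listed genes was chosen after seeing the data. Some single-gene results are left out.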

Additional observations from a re-analysis of the deposited data

How the results depend on the processing

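Under 19 alternatives, 928 of the 969 values of members kept direction and call, 33 lost the call, 2 gained it and 6 turned sign, and 35 of the 44 called members kept the call throughout. Members under the filter of a setting were counted here from the fit of all 31768 genes above 0. At a mean of at least 5 FPKM these included LAMA3, FERMT2, PARVB and TNS3, which were not tested in that setting. Members higher numbered 4 at a mean of at least 5 FPKM, where fewer genes are tested, and 3 under TPM, and other pathway genes numbered 21 lower at 5 FPKM and 9 higher under TPM. The integrin median was -0.85 with a pseudocount of 0.01, -0.57 under TPM, -0.37 without the length trend and -0.93 by voom. In the main fit (-0.46) and with that pseudocount, this median was the value of ITGA1, which lay below the filter. The 8 chains tested had a median of -1.18 in the main fit. Under TPM the medians were -0.11 for laminins (-0.073 without the GC trend), -0.53 for linkers, -0.56 for contractility and -0.78 for signalling genes. The signalling median was -0.63 with a pseudocount of 1, -0.64 after quantile normalization, and -0.58 without the length trend as without the GC trend. Leave-one-out ranges were -0.55 to -0.47 for integrins, -0.0162 to 0.0331 for laminins, -0.47 to -0.36 for linkers, -0.69 to -0.64 for signalling and -0.50 to -0.41 for contractility genes. Signs turned for ILK (0.0013 with a pseudocount of 1, and -0.32 to 0.18 over libraries left out), PARVA (0.0835 without the length trend) and DIAPH1 (-0.0098 under TPM), none of them called under the setting that turned the sign. The gained calls were DIAPH1 higher without the length trend (0.19, adjusted p = 0.043) and ITGA1 lower by voom (0.0296). The causes of these shifts were not tested.

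Deviations of same-numbered libraries correlated at 0.067, 0.033 and -0.064, and those of differently numbered libraries at -0.094 to 0.061. No shared effect of the replicate number was thus seen, which does not settle whether samples were processed in pairs. With a replicate block, 37 members were lower and 6 higher, the call of LAMB1 being lost (adjusted p = 0.0535, limma) and no other call of a member. The precision of ITGA1, ITGB6, ILK and CDC42 is limited by their few fragments.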

Other observations

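Several members lie next to each other in the genome (hg38), and these neighbours were picked out after their values were seen. On chromosome 7, CAV2 (116287380 to 116508541) ends before CAV1 (116524785 to 116561184) on the same strand, and CAV2 fell by 0.67 while CAV1 changed by 0.19 on the log2 scale. On chromosome 18, MYL12A (3247481 to 3256236) and MYL12B (3261479 to 3278431) fell by 0.62 and by 0.74. On chromosome 5, ITGA1 (52787896 to 52959210) lies before ITGA2 (52989326 to 53094779), and the mean level was 0.136 FPKM for ITGA1 and 25.9 FPKM for ITGA2 in CTR. ITGA2 fell by 1.45, whereas ITGA1 was below the filter at -0.46.

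Library to library spread among CTR was uneven between the role groups. Set against each gene's CTR mean, the median linker was at -0.12, 0.03 and 0.09 on the log2 scale in CTR replicates 1, 2 and 3, and the median signalling gene at 0.0057, 0.0176 and -0.0092. FLNA was at 65.4 FPKM in CTR replicate 1 against 76.4 and 81.4 FPKM in the others, and ACTN1 at 19.0 against 23.1 and 25.1 FPKM. Both genes were still higher in that library than in any miR-8485 library, where FLNA reached 51.3 FPKM and ACTN1 17.2 FPKM.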
